A study of Mus musculus with 16 samples.

Results

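The genes described here encode the force-generating and structural proteins of the axoneme, the microtubule scaffold of motile cilia and of the sperm tail. They were chosen by name as protein-coding mouse genes whose symbol starts with Dnah (dynein heavy chains), Dnaic (dynein intermediate chains), Dnaaf (dynein assembly factors), Cfap (cilia and flagella associated proteins), Rsph (radial spoke proteins) or Drc (nexin-dynein regulatory complex), each followed by a digit. A gene also had to reach a normalised read count of 10 in 2 or more libraries of the P16 table with the plain controls. Of the 55414 genes in each table, 63 had such a symbol and 58 passed the minimum: 14 of 15 Dnah, 2 of 2 Dnaic, 4 of 4 Dnaaf, 28 of 31 Cfap, 7 of 8 Rsph and 3 of 3 Drc genes.

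Testis RNA of juvenile mice was sequenced at postnatal days 14 and 16 (P14 and P16). The mice were labelled control, Cre control or Ythdc2 cKO, a conditional knockout of the RNA helicase YTHDC2. Tamoxifen (10 mg per ml) was given to all groups on the days P12 and P13, and the labels describe neither the Cre driver nor the alleles that separate both control types. There were 2 control, 2 Cre control and 3 cKO libraries at P14, and 2 control, 4 Cre control and 3 cKO libraries at P16. Controls and cKO libraries 1 and 2 were depleted of ribosomal RNA with Ribo-Zero (termed the first kit), and the Cre controls and cKO library 3 with a NEBNext kit (the second kit). Reads on genes ranged from 22220565 to 27531529 with the first kit and from 14494867 to 23200252 with the second. Ythdc2 itself stood at 2666 and 2609 normalised counts in the P16 controls, against 502 and 541 in cKO libraries 1 and 2. Markers of early meiotic germ cells (24 of 24) and Sertoli cells (20 of 20) passed the minimum at P16, whereas 5 of 18 spermatid markers did, and Prm2, Prm3, Tnp2 and Spaca7 were at 0 in every library.

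In the axoneme, outer and inner arm dyneins attached to the outer doublets slide neighbouring doublets against each other. Radial spokes carry signals from the central apparatus to the dyneins, the nexin-dynein regulatory complex links the doublets, and small proteins inside the doublet wall stabilise it. Cytoplasmic assembly factors fold the dynein complexes before they enter the axoneme. In the testis, many of these genes are switched on in meiotic spermatocytes, well before a sperm tail is built, and in ciliated cells RFX transcription factors bind the X-box in the promoters of many of them.

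The promoters of 6 members are shown because these members passed a test in cKO at P16 (lower with both kits combined, or higher with the first) and hold an X-box, so that the motif can be seen beside the direction of change. This set was chosen after its values were seen. Each sequence is from RefSeq (GRCm38.p6), runs 5′ to 3′ on the strand of the gene from 250 bases before to 50 bases after an annotated start, and has the X-box in capitals:
Rsph14 (chr10:75032504-75032803, minus strand): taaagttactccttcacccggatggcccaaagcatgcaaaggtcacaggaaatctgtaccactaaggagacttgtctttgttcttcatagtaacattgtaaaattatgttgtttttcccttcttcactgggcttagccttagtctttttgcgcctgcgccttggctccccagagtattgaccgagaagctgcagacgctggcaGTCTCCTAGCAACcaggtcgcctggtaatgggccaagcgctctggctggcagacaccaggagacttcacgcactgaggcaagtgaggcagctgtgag
Cfap44 (chr16:44394549-44394848, plus strand): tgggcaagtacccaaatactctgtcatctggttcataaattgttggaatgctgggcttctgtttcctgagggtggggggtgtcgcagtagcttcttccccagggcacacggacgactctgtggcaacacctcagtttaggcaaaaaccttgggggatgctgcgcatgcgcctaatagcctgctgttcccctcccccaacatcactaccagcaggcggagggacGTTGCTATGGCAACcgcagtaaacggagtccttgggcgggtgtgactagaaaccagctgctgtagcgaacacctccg
Cfap99 (chr5:34288415-34288714, plus strand): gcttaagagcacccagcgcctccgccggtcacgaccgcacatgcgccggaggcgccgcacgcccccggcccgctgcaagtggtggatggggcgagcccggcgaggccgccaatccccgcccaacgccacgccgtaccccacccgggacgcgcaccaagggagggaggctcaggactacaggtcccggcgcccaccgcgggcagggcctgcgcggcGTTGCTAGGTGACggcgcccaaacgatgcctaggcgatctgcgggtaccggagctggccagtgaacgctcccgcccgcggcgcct
Dnaaf5 (chr5:139149985-139150284, plus strand): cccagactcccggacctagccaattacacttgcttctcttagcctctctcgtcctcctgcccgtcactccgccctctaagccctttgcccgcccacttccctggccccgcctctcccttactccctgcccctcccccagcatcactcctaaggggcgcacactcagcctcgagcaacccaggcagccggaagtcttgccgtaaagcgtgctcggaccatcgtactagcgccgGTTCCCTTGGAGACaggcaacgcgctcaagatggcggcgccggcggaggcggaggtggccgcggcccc
Dnaaf2 (chr12:69198380-69198679, minus strand): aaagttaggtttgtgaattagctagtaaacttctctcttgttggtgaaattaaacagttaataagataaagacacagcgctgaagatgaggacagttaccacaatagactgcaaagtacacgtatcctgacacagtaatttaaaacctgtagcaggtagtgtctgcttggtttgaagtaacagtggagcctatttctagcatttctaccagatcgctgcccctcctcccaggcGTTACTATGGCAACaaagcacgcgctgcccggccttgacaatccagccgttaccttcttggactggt
Dnaic1 (chr4:41569544-41569843, plus strand): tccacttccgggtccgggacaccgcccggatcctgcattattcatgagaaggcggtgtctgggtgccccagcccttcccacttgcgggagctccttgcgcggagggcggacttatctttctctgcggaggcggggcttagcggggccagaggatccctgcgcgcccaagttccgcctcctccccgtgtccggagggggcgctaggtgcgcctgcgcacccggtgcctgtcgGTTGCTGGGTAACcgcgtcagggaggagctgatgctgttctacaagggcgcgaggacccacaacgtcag

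The X-box was searched on both strands as GTNNCC followed by NGNAAC with 0 to 3 bases between. RefSeq promoters were matched for 48 of the 58 members, and 16 of the 48 (33.3%) held the motif, against 5.94% of 27025 genes with a promoter of the same length. In the 6 shown, its first base lay at -47 (Rsph14), -35 (Cfap99), -27 (Cfap44), -19 (Dnaic1), -18 (Dnaaf5) and -17 (Dnaaf2) relative to the start. A MYB motif, AACNGNC on either strand, was found in 27 of the 48 (56.2%), against 36.0% of the genes. Letters that match are a description of the promoter and show no binding.

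In the P16 controls the members ranged from 0.958 (Dnah5) to 5737 (Rsph1) normalised counts per kb of exon. Their median was 123 normalised counts, against 107 over all genes that passed the minimum. The highest levels per kb were those of Rsph1, a spoke-head protein (5737), Cfap36 (1320), and the assembly factors Cfap298 (895) and Cfap300 (762).

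Among outer arm heavy chains, the levels split by gene. Dnah8 and Dnah17, the outer arm chains of the sperm tail, stood at 417 and 136 normalised counts per kb. Dnah9, Dnah11 and Dnah5, the outer arm chains of airway and other motile cilia, held the 3 lowest positions of all members: Dnah9 stood at 2.86 per kb, Dnah5 at 0.958 and Dnah11 between them. Dnah5 stood at 7.27 and 22.7 counts in the P16 controls and at 9.70 and 19.7 in cKO, just inside the minimum of 10. Just outside it were Dnah3, another heavy chain, at 5.20 and 6.62 in controls and 4.85 and 3.11 in cKO, and Rsph4a, a spoke-head protein of motile cilia, at 1.04 and 4.73 in controls and 3.88 and 4.14 in cKO. Cfap97d2, Cfap100 and Cfap97d1 were the others that did not pass, and the last was at 1.04 in 1 control library and 0 in the other 3.

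**Figure D1:**
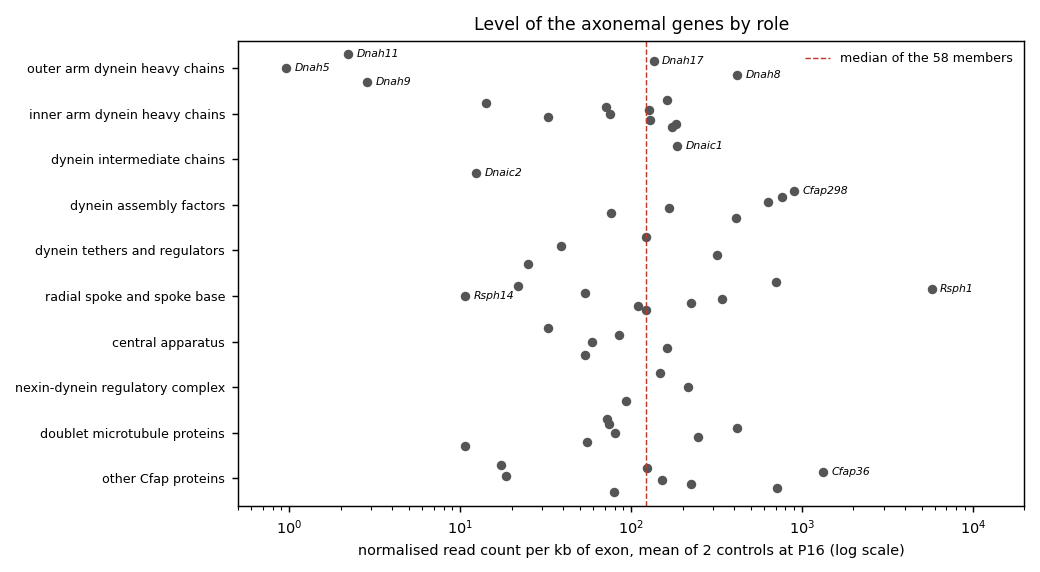
Mean normalised read count per kb of exon in the 2 controls at P16 (x axis, log scale) for each member, grouped by role (y axis). Dnah8 (417) and Dnah17 (136) lie above the dashed line at the members' median (123), and Dnah9 (2.86), Dnah11 and Dnah5 (0.958) lie furthest left.

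The first comparison asked how the members changed as the first wave of germ cells moved on from P14 to P16. In controls, 54 of 58 members rose (limma on log2 CPM, Benjamini-Hochberg adjusted p under 0.05, termed called from here on) and none fell, against 16.6% of all genes called higher and 9.31% lower. Their median log2 change was 1.49, against -0.01 over all genes, and the minimum value had been set on P16 libraries. The largest rises were those of Rsph6a, a spoke-head protein of the sperm tail, Cfap73, Dnah17 and Dnah6, an inner arm chain. Rsph6a went from 0.892 and 0.900 CPM (reads scaled to the total on genes) in the P14 controls to 11.4 and 9.81 at P16, and its log2 change was 3.51 ± 0.18 (SE, adjusted p = 9.41e-07 by limma). Dnah17 went from 10.1 and 12.2 to 82.8 and 85.4 (log2 change 2.92 ± 0.09, SE). No P14 library came near a P16 library for either gene. Cfap73, grouped with the tethers and regulators of the dyneins, went from 0.0446 and 0.0900 to 1.04 and 0.726 (log2 change 3.11 ± 0.46, SE), from at most 2 reads per library at P14.

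The rise was uneven across the role groups. Members of the nexin-dynein regulatory complex had a median log2 change of 2.27 (3 of 3 called), dynein tethers and regulators 2.06 (4 of 4), inner arm heavy chains 1.66 (9 of 9), central apparatus proteins 1.51 (5 of 5), doublet proteins 1.38 (6 of 7) and spoke proteins 1.16 (9 of 9). Assembly factors had a median of 0.73 (6 of 6 called), and Dnaaf5 rose by 0.20. Outer arm heavy chains had the lowest median, 0.30, with 2 of 5 called and 2 of 5 below 0. The 4 members that were not called were Dnah5, Dnah9, Dnah11 and the doublet protein Cfap77, which is named here after its values were seen. Dnah9 stood at 1.34 and 1.44 CPM at P14 and at 1.36 and 2.14 at P16, and these groups were not separated beyond their spread. The outer arm chains that did rise were Dnah8, which went from 106.7 and 126.9 to 420.4 and 440.0 CPM (log2 change 1.89 ± 0.07, SE), and Dnah17.

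Cre controls, sequenced apart with the second kit, showed 52 of 58 members called higher from P14 to P16 and none lower, against 9.06% of all genes called higher and 2.75% lower, and their median log2 change was 1.93. All 52 were among the 54 of the controls (52 of 54 and 52 of 52). Without library 1 of the Cre controls at P14 the count was 30, and within the single sequencing run that holds libraries of both stages it was 45 of 52 tested. In cKO libraries of the first kit, a comparison added after the data were seen, 42 of 58 were called higher and none lower, against 12.8% of all genes called higher and 9.67% lower, with a median of 1.04. All 42 were called in controls too (42 of 54 and 42 of 42), but without cKO library 1 or without cKO library 2 at P16 the count fell to 0. Whether the rise differed between cKO and control is tested by the interaction given further on.

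**Figure D2:**
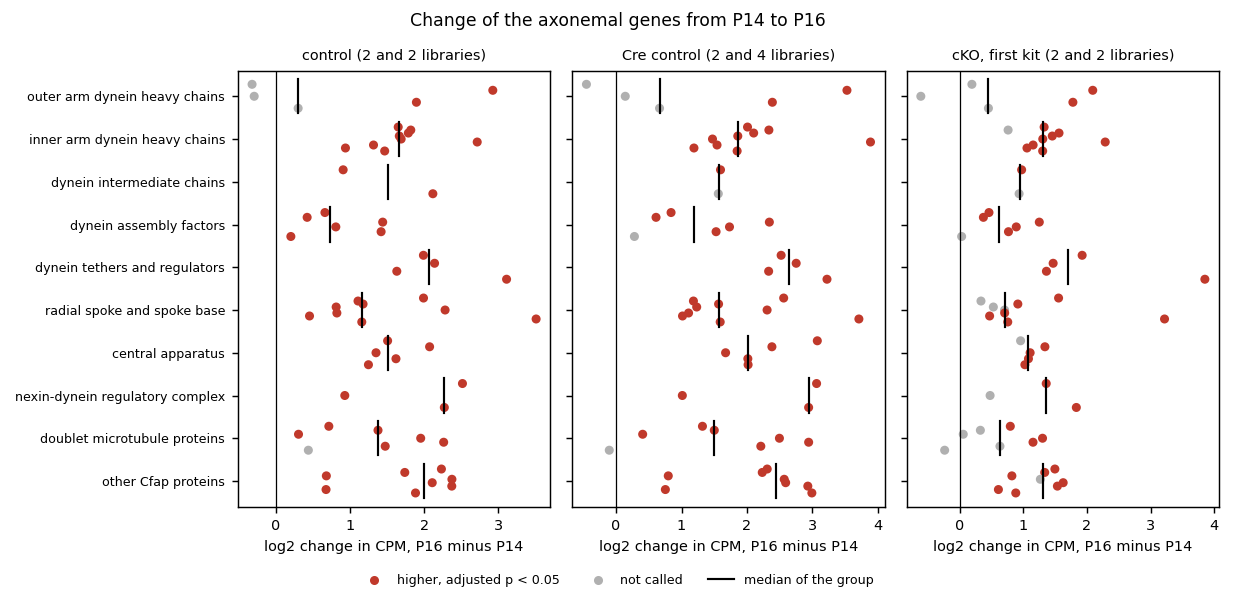
Log2 change in CPM from P14 to P16 (x axis) of each member, by role (y axis), in control, Cre control and cKO libraries. Red points passed the limma test (54, 52 and 42 of 58 members), grey points did not, and the black line is the median of the role group.

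Spermatocyte markers rose over the same days. Of the list for pachytene and later spermatocytes, 25 of 28 were called higher in controls (median log2 change 1.28), and of the early meiotic list 12 of 24 (0.17). Sertoli, Leydig, peritubular and macrophage markers were called lower in controls for 15 of 20, 4 of 12, 8 of 11 and 7 of 10. In Cre controls these 4 lists were called lower for 2 of 20, 0 of 12, 3 of 11 and 0 of 10. There the pachytene list was called higher for 23 of 28 (median 2.07). The early meiotic list had 4 of 24 called higher and 4 lower in Cre controls. In bulk tissue, more cells of a type and more RNA per cell cannot be told apart, and the part of the spermatocytes in the members' rise was not tested. Markers of the efferent ducts, the ciliated ducts next to the testis, and of the epididymis epithelium together summed to 6.09 to 11.4 CPM over the P14 libraries. Over the P16 libraries they summed to 11.3 to 17.4 CPM. In controls 1 of the 7 tested was called higher, while 6 of the 7 lay below 0 (median log2 change -0.35). In Cre controls 4 of 6 lay above 0 (median 0.43), with 1 called higher. Lcn5 and Crisp1 of that list were at 0 in every library, and Mcidas and Gmnc, which start the formation of multiple cilia, reached at most 3.78 and 2.84 normalised counts in the P16 control table.

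The second comparison asked which members differed between cKO and control at P16. With the first kit, 30 of 58 members (51.7%) were called, 24 lower and 6 higher in cKO, by limma on log2(value + 1). Over all 17986 genes tested, 38.6% were called, 19.9% lower and 18.6% higher, so that the share of members called lower (41.4%) lay above the share of all genes and the share called higher below it. The median log2 change of the members was -0.18, against -0.00 over all genes, and single members ranged from -1.30 to 0.31. In 35 members both cKO libraries lay below both controls (35.4% of all genes), and in 7 both lay above (34.2%).

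**Figure D3:**
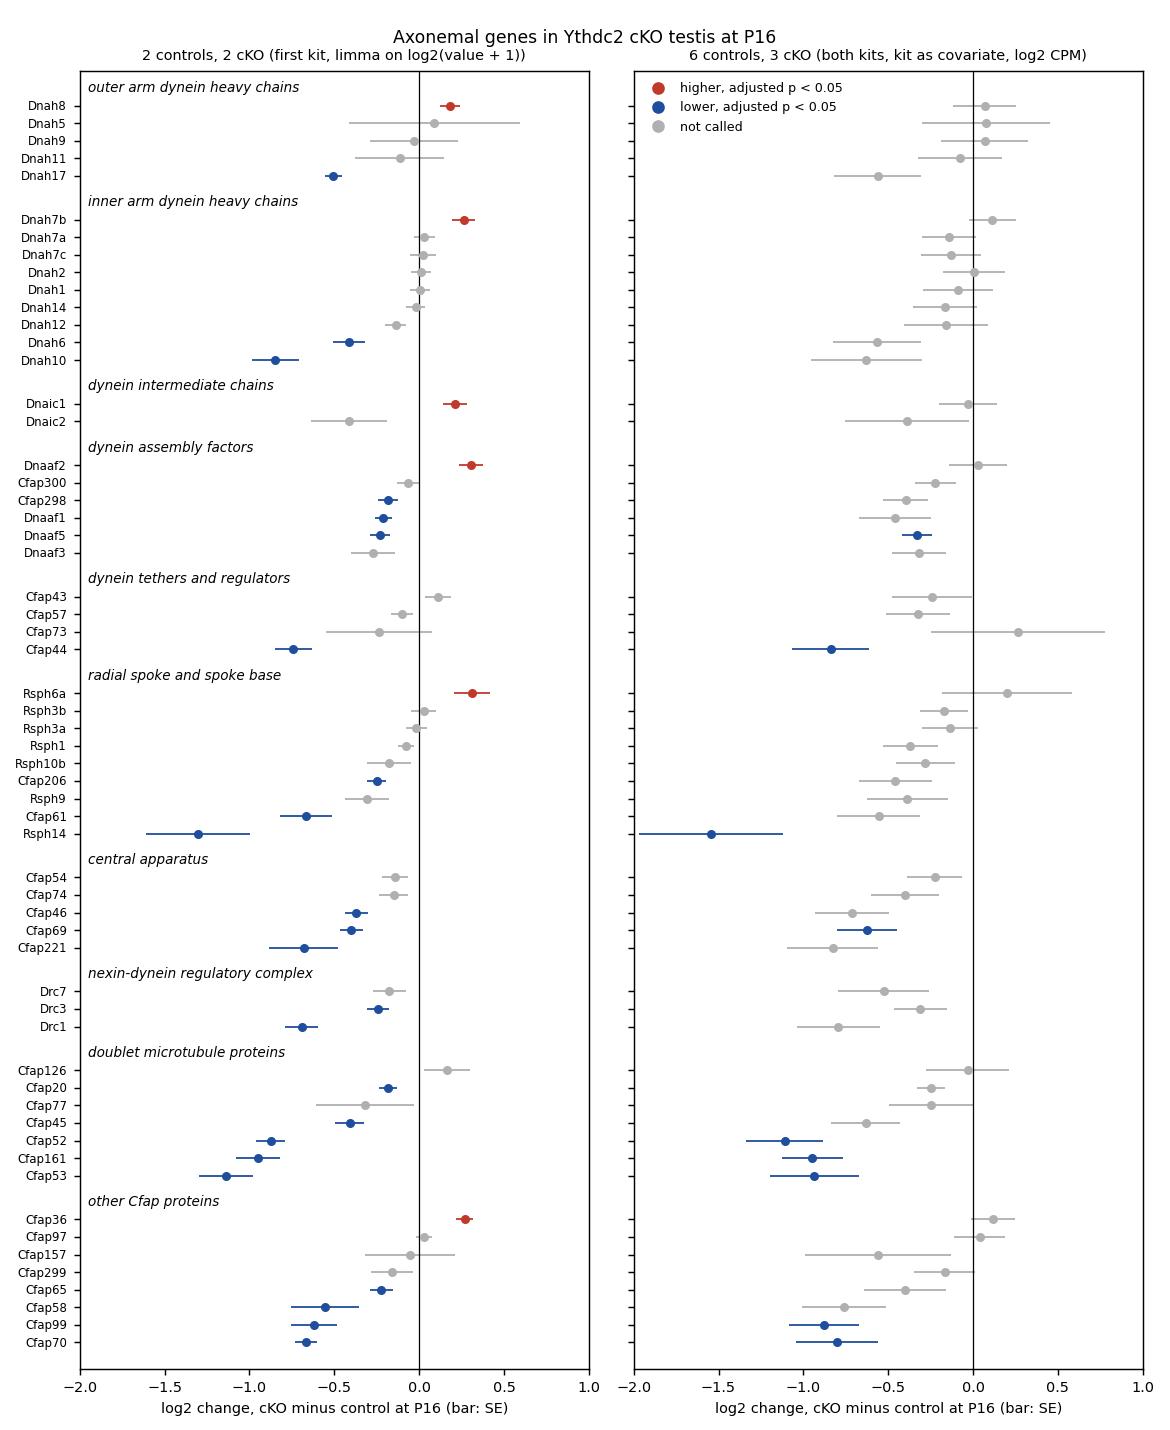
Log2 change ± SE of each member in cKO at P16, against the 2 controls of the first kit (left) and against all 6 controls with the kit as a covariate (right). Blue members were called lower (24 left, 9 right), red higher (6 left, none right), and most heavy chains lie near 0 while most doublet, central apparatus and nexin-dynein members lie to the left.

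Of the 14 dynein heavy chains, 2 were called higher and 3 lower, shares close to the 18.6% and 19.9% of all genes. Dnah17 stood at 2150 and 2221 normalised counts in controls and at 1527 and 1550 in cKO, so that the groups did not overlap, and it fell by 0.51 on the log2 scale (SE 0.05, limma adjusted p = 1.07e-05). Its outer arm partner Dnah8 stood at 10915 and 11452 in controls and at 11728 and 13682 in cKO, a rise of 0.18 ± 0.06 (SE, limma adjusted p = 0.0304) that was called in 7 of 14 alternative fits. Dnah5, Dnah9 and Dnah11 were not called. Among the 9 inner arm chains, Dnah10, a chain of the double-headed inner arm, went from 248 and 208 in controls to 138 and 115 in cKO (log2 change -0.85 ± 0.14, SE). Dnah2, the other chain of that arm, stood at 1137 and 1122 in controls and at 1167 and 1109 in cKO (log2 change 0.01 ± 0.06, SE). Both values of Dnah10 in cKO lay below both controls, and those of Dnah2 overlapped. Dnah6 was called lower (-0.41 ± 0.09, SE), and Dnah1, Dnah12, Dnah14, Dnah7a and Dnah7c were not called. Dnah7b was called higher (0.26 ± 0.07, SE), but 48.4% of its 50-base stretches are shared with the near copies Dnah7a and Dnah7c, so that reads could be assigned to the wrong copy or dropped.

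Dynein intermediate chains and assembly factors changed little. Dnaic1, the intermediate chain also known as Dnai1, stood at 523 and 508 in controls and at 588 and 604 in cKO (log2 change 0.21 ± 0.07, SE, limma adjusted p = 0.0363). Dnaic2 stood at 63.4 and 50.1 in controls and at 38.8 and 45.6 in cKO, a change of -0.41 ± 0.22 (SE) that was not called. Of the 6 assembly factors, Dnaaf1, Dnaaf5 and Cfap298 were called lower by 0.19 to 0.23 on the log2 scale. Dnaaf2 was called higher, at 550 and 587 in controls and 687 and 719 in cKO (0.31 ± 0.07, SE), and Dnaaf3 and Cfap300 were not called. Among tethers and regulators, Cfap44 went from 353 and 303 in controls to 198 and 193 in cKO, and it was the only one of the 4 that was called (-0.74 ± 0.11, SE).

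Radial spoke members included both the largest fall and the largest rise of the whole set. Rsph14, a spoke protein, stood at 33.2 and 31.2 normalised counts in controls and at 13.6 and 11.4 in cKO, which left 38.8% of the control mean, and it fell by 1.30 on the log2 scale (SE 0.31, limma adjusted p = 0.00476). These values rest on 11 to 33 reads per library, and Rsph14 is thus the least precise of the members with a large change. Rsph6a stood at 295 and 255 in controls and at 359 and 323 in cKO, a rise of 0.31 ± 0.10 (SE, limma adjusted p = 0.0327). Cfap61, a protein of the spoke base, was called lower at -0.67 ± 0.15 (SE). Rsph1, the member with the highest level per kb, stood at 7728 and 8014 in controls and at 7192 and 7740 in cKO and was not called. Rsph9, Rsph10b and the near copies Rsph3a and Rsph3b, which share 74.0% and 75.8% of their 50-base stretches with each other, were not called either.

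Proteins of the doublet wall fell furthest as a group, with 5 of 7 called lower, none higher and a median of -0.41. Cfap53 stood at 135 and 150 in controls and at 62.1 and 66.3 in cKO (log2 change -1.14 ± 0.16, SE, limma adjusted p = 0.00013). Cfap161 stood at 257 and 215 in controls and at 123 and 119 in cKO (-0.95 ± 0.13, SE). Cfap52 stood at 537 and 604 in controls and at 308 and 313 in cKO (-0.87 ± 0.09, SE, limma adjusted p = 1.09e-05). In each of these genes the cKO libraries held 45.0% to 54.4% of the control mean and did not overlap the controls.

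In the central apparatus, 3 of 5 members were called lower and none higher (median -0.37). Cfap221 stood at 110 and 79.4 in controls and at 52.4 and 64.2 in cKO (-0.68 ± 0.20, SE), and Cfap69 at 1332 and 1244 against 927 and 1027 (-0.40 ± 0.07, SE). In the nexin-dynein regulatory complex, Drc1, which anchors the complex at the doublet, went from 412 and 376 in controls to 236 and 251 in cKO (-0.69 ± 0.10, SE). Drc3 was called lower by 0.24 on the log2 scale, and Drc7 was not called. Of the other Cfap proteins, Cfap70 (-0.67), Cfap99 (-0.62) and Cfap58 (-0.55) were among 4 called lower, Cfap36 was called higher (0.27), and Cfap97 was not called (0.03). Without library 1 of the controls at P16, 18 members were called in place of 30. With limma's eBayes step run without a trend, 12 members were called lower and 0 higher. Both counts stand without the share of all genes called in the same fit. They therefore do not show whether members lost more calls than other genes. Over 14 alternative fits the higher calls held in 7 (Dnah8) to 13 (Cfap36), among them Dnaic1 in 8 and Rsph6a in 9. Some lower calls were as unstable: Cfap298 held in 7 of 14, Cfap58 in 8 and Cfap221 in 9. Exons of 26 members overlap a gene on the other strand, among them Cfap52, Cfap61, Dnah17, Dnah10, Dnah6, Dnah8, Dnah2, Dnaic1, Dnaaf1, Dnaaf2 and Dnaaf5, and the strand setting of the counting is not given in the sources used here, so that reads of the overlapping gene may be included. For 5 members, among them Dnaaf2, Dnaaf3 and Rsph10b, exons overlap a gene on the same strand, which no strand setting would separate.

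The X-box was set beside the changes in cKO as counts, with no test. Of the 16 members with an X-box, 11 were called lower and 2 higher in cKO (median log2 change -0.33), and of the 32 with a promoter but without the motif, 10 were called lower and 4 higher (median -0.13). The members shown above with the motif in capitals thus include 4 that were called lower (Rsph14, Cfap44, Cfap99 and Dnaaf5) and 2 that were called higher (Dnaaf2 and Dnaic1). The medians of the rise from P14 to P16 in controls were 1.49 with the motif and 1.56 without it.

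Marker lists at P16 also differed between cKO and control with the first kit. Of the early meiotic list 22 of 24 were called lower and none higher in cKO (median log2 change -0.50), and of the pachytene list 14 of 28 were called higher and 4 lower (0.16). Of the Sertoli list 13 of 20 were called higher and 1 lower, and of the macrophage list 7 of 10 higher and none lower. Leydig and peritubular markers were called higher for 6 of 12 and 3 of 11, and spermatid markers for 2 of 5, none lower. Of the efferent duct and epididymis markers, 0 of 6 were called higher and none lower. Spermatogonial markers were called lower for 12 of 16 and higher for 2. Fewer markers were called in the fit over both kits, given further on. There, 14 of 24 early meiotic markers were called lower and none higher. Of the pachytene list, 1 of 28 was called higher and 1 lower (median -0.09). Sertoli and macrophage markers were called higher for 2 of 20 and 4 of 10. No spermatogonial, Leydig or peritubular marker was called (17, 12 and 11 tested). The part of these lists in the members' changes was not tested.

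Axonemal partners outside the naming rule were taken from lists by function, and the calls given first are those of the first kit. Of the partners and docking proteins of the outer arm, 5 of 10 were called lower and none higher (median -0.26), led by Armc4, a docking protein, which stood at 224 and 230 in controls and at 88.3 and 77.7 in cKO (-1.44 ± 0.14, SE). Of the inner arm and ruler partners 4 of 8 were called lower and none higher (median -0.23), led by Ccdc113 (-0.83), Dnali1, a light chain of inner arms (-0.70), and Ccdc40, which with its partner sets the repeat of the axoneme (-0.46). Of the central pair and spoke partners 9 of 19 were called lower and none higher (median -0.16), led by Spef2 (-0.73), Lrrc23 (-0.65) and Ak8 (-0.46). Of the further nexin-dynein and doublet proteins 6 of 17 were called lower and 1 higher (median -0.19). Ccdc65, a regulatory complex subunit, went from 867 and 820 in controls to 382 and 422 in cKO (-1.07 ± 0.08, SE), Spaca9 (-0.76) and Ribc2 (-0.59) fell too, and Mns1, a doublet protein, rose (0.42). Of the list of assembly partners 2 of 11 were called lower, Dyx1c1 (-0.58) and Zmynd10 (-0.21), and 1 higher, Tbc1d31 (0.27). Tbc1d31 is not an established dynein assembly factor. In the fit over both kits fewer were called, none of them higher. Called lower there were 2 of 10 outer arm, 3 of 8 inner arm and 2 of 19 central pair and spoke partners. The further nexin-dynein and doublet proteins had 4 of 17 called lower, and the assembly partners 0 of 11.

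Intraflagellar transport genes, which encode the carriers that build cilia, were split with the first kit. Of 22 tested, 10 were called lower, led by Traf3ip1 (-0.40), Ift88 (-0.31) and Ift80 (-0.31), and 4 higher, led by Ift57 (0.45), Ttc30b (0.30) and Wdr19 (0.18), with a median of -0.12. In the fit over both kits 4 of the 22 were called lower and none higher, and 19 lay below 0. Of 9 genes for the outer dense fibres and fibrous sheath that passed the minimum, 3 were called lower: Tssk1, a testis kinase (-1.21), Akap3, a sheath anchor protein (-0.56), and Spa17 (-0.24). Fsip2, a sheath protein, was called higher (0.57). These are first-kit calls, and over both kits 0 of the 9 were called.

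Of a list of transcription factors and other regulators of cilia and spermatocyte genes, 3 of 15 were called higher and 3 lower with the first kit (median 0.00). These shares lie close to the 18.6% higher and 19.9% lower of all genes. In the fit over both kits 2 of 16 were called lower and none higher. The values below are those of the first kit. Rfx2, the main RFX factor of spermatocytes, stood at 1751 and 1730 in controls and at 1666 and 1901 in cKO and was not called (0.03 ± 0.06, SE). Foxj1, the regulator of motile cilia, stood at 47.8 and 61.4 in controls and at 39.8 and 33.1 in cKO, and its change of -0.56 ± 0.23 (SE) was not called (limma adjusted p = 0.0724). Mybl1, the MYB factor of pachytene spermatocytes, was called higher (0.38 ± 0.05, SE), as were Rfx4 (0.29) and Ccno (0.47), which encodes a cyclin and not a transcription factor. Taf7l, a germ cell component of the basal transcription machinery, was called lower, at 6513 and 6378 in controls and 3904 and 3623 in cKO (-0.78 ± 0.05, SE), as were E2f4 (-0.37) and E2f5 (-0.42). Rfx1, Rfx3, Sox30, Tcfl5, Crem, Tbpl1 and Foxn4 were not called, and Myb, Trp73, Mcidas and Gmnc did not pass the minimum.

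**Figure D4:**
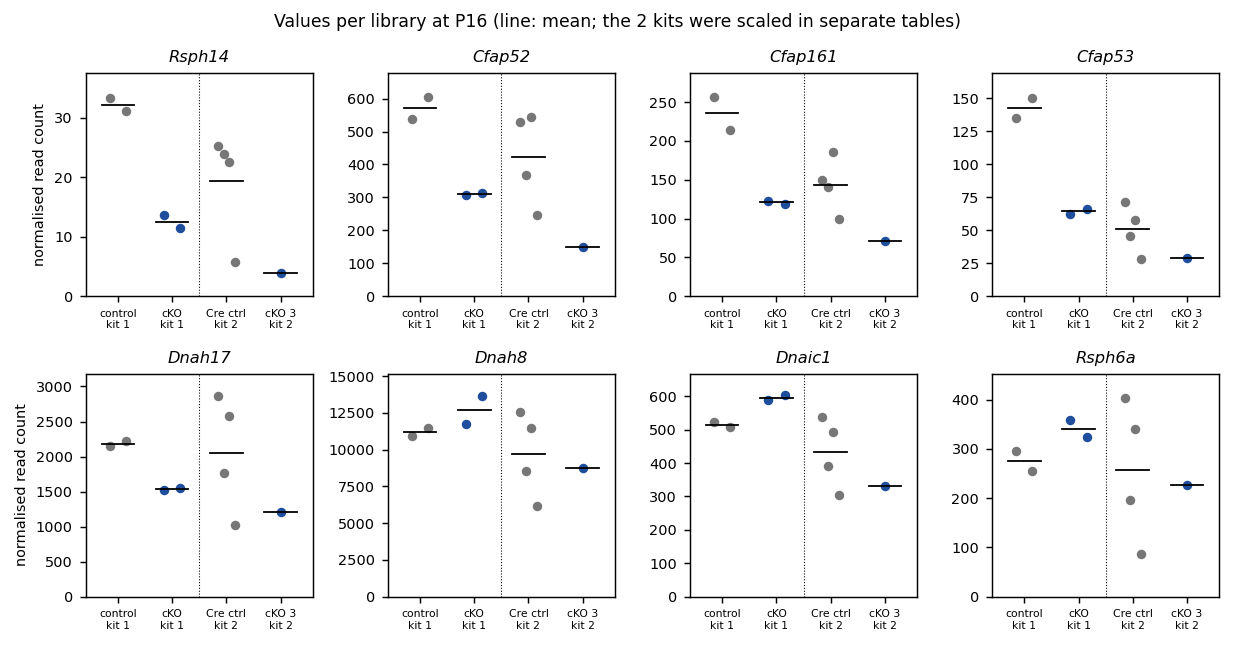
Normalised read count (y axis) of 8 members in each library at P16: controls and cKO libraries 1 and 2 of the first kit, left of the dotted line, and 4 Cre controls and cKO library 3 of the second kit, right of it, with the mean as a line. The cKO points of Rsph14, Cfap52, Cfap161 and Cfap53 lie below both controls of the first kit, and the lowest Cre control point in each panel is library 4.

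The third comparison set cKO against the Cre controls at P16. When all 3 cKO libraries were fitted against the 4 Cre controls, 2 of 58 members were called, both lower, against 4.77% of all genes called lower and 4.3% higher (9.07% in either direction). On simulated data of this comparison, the test recovered 19.1% of genes changed by 1 on the log2 scale, so that most changes of the size seen with the first kit could not be detected here. They were Dnaaf5 (-0.83 ± 0.16, SE, limma adjusted p = 0.038) and Rsph3b (-1.01 ± 0.25, SE, limma adjusted p = 0.0483), and with the kit as a covariate 0 were called. In that fit the members' median was -0.44 in place of -0.21, and it rests in effect on cKO library 3 alone, so that the lost calls do not show that the differences went away. Kit and genotype are partly confounded there, since 2 of the 3 cKO libraries were made with the first kit and all Cre controls with the second. The Cre controls also differed among themselves. Per the file headers, Cre control library 1 and cKO library 3 shared a sequencing run, and Cre control libraries 2 to 4 were sequenced in another. Against the mean of the other 3, the members' median in Cre control libraries 1 to 4 was 0.55, -0.16, 0.39 and -0.74 on the log2 scale, and that of the pachytene list 0.65, -0.24, 0.26 and -0.59. In library 4, 54 of 58 members were below the mean of the other Cre controls.

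Library 3 of the cKO, the one made with the second kit, was below all 4 Cre controls for 24 of 58 members (30% of all genes) and above all of them for none (24%). All 24 members called lower with the first kit were below the Cre control mean in this library, with a median log2 difference of -0.86, compared with 79.7% of all genes called lower. Most other members were below it too (29 of 34, median -0.34), and thus 53 of 58 members in all, against 52.8% of all genes. Against Cre control library 1 alone, from the same run, the 24 had a median of -1.25 and the other 34 a median of -0.75, a comparison of 2 libraries with no test. Of the 6 members called higher with the first kit, 1 was above the mean of the 4 Cre controls in cKO library 3, compared with 83.8% of all genes called higher. Cre control library 4 was also below the mean of Cre controls 1 to 3 for all 24. Against that mean the median of the 24 was -0.89 in Cre control library 4 and -1.09 in cKO library 3. Set directly against Cre control library 4, cKO library 3 was lower for 17 of the 24 (median -0.24) and for 10 of the other 34 (median 0.10). These references were chosen after the values were seen. Rsph14, for example, stood at 25.3, 23.8, 22.6 and 5.83 in the Cre controls and at 3.97 in cKO library 3, the last from 3 reads. Cfap161 stood at 149, 141, 186 and 99.2 in the Cre controls and at 71.5 in cKO library 3, below each of them. Cfap52 stood at 530, 369, 543 and 246 and at 150 in cKO library 3.

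When both kits were fitted together with the kit as a covariate (6 controls of either type and 3 cKO libraries, log2 CPM of whole reads), 9 of 58 members were called, all lower. Of all genes, 13.6% were called, 7.49% lower and 6.07% higher. The members were Rsph14 (-1.54 ± 0.42, SE), Cfap52 (-1.11 ± 0.23), Cfap161 (-0.95 ± 0.18), Cfap53 (-0.94 ± 0.26), Cfap99 (-0.88 ± 0.21), Cfap44 (-0.84 ± 0.23), Cfap70 (-0.80 ± 0.24), Cfap69 (-0.63 ± 0.18) and Dnaaf5 (-0.33 ± 0.09). These comprise 3 doublet proteins, 1 protein each of the spokes, the central apparatus, the tethers and dynein assembly, 2 other Cfap proteins, and no heavy chain or intermediate chain. The median over the members was -0.32, against -0.01 over all genes, and the fit shares its first-kit libraries with the comparison above. Cfap161 was called in each of 16 alternative fits, with log2 changes from -1.08 to -0.87, and Cfap52 in 14 of 16. The other members were less stable. Cfap99 was called in 10 of 16, Cfap44 and Dnaaf5 in 9, Cfap53 and Cfap69 in 8 and Cfap70 in 6. Rsph14 was called in 6 of 15. With the sequencing run as a further covariate, an alternative added after the data were seen, 12 members were called, all lower, and the 9 were among them. The count rests on single libraries: it was 24 without Cre control library 4, 4 without Cre control library 3, 2 without either control library or without cKO library 1 or 2, and 1 without cKO library 3.

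**Figure D5:**
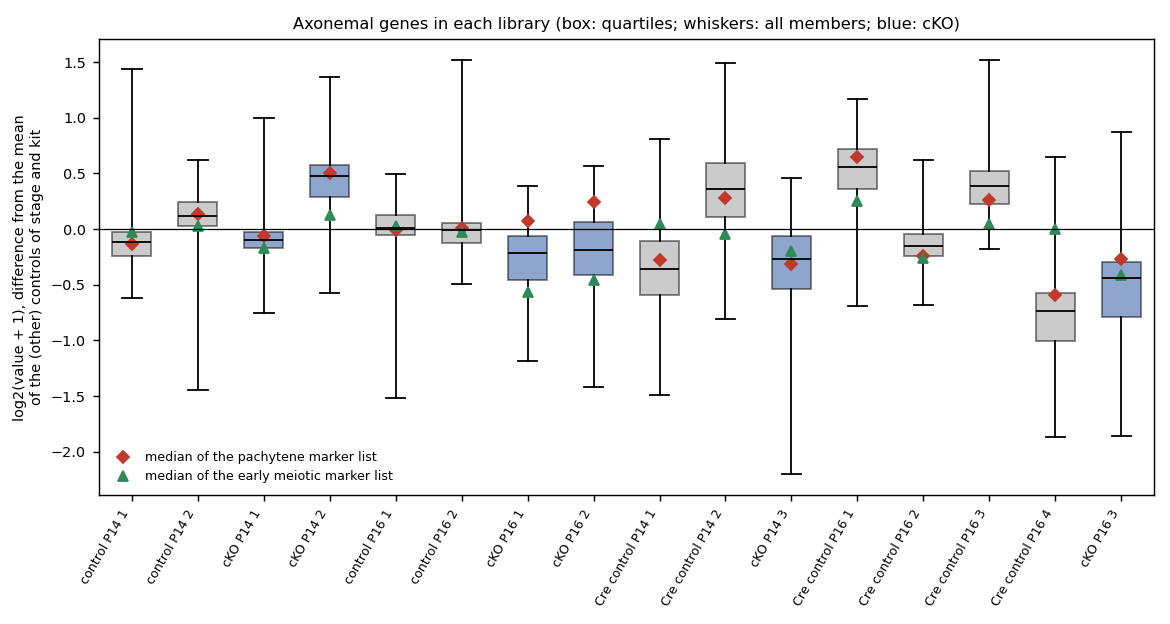
Difference in log2(value + 1) of each member from the mean of the controls of the same stage and kit, the other controls for a control library (y axis), in each library (x axis): boxes show the quartiles, whiskers all members, blue boxes cKO. Diamonds are medians of the pachytene list and triangles those of the early meiotic list. In cKO P16 1 and 2 the members' median lies below 0 while the diamond lies above. In cKO P16 3 (-0.44 and -0.26) and in Cre control P16 4 both lie below.

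At P14 no member was called in cKO against either control type by limma without further terms. With the first kit 0 of 55 members tested were called by limma, against 0.00579% of all genes, and at an unadjusted p under 0.05 there was 1 member, Dnah2 (2.37% of all genes), while edgeR and DESeq2 called 0 and 0. The median log2 change was 0.18, with 47 of 55 members above 0. That median came from 1 library: cKO library 2 had a median of 0.48 with 50 of 55 members above the control mean, and cKO library 1 a median of -0.10 with 45 of 55 below it. The pachytene list stood at 0.50 in cKO library 2 and at -0.07 in cKO library 1, and its part in the members' values was not tested. Rsph14 at P14 stood at 8.61 and 3.25 in controls and at 3.88 and 11.5 in cKO, and Cfap161 at 82.9 and 84.5 in controls and at 76.7 and 107 in cKO, so that the groups overlapped. Against Cre controls at P14, 0 of 54 members were called by limma, and 0% of all genes; at an unadjusted p under 0.05 there were 0 members and 3.87% of all genes, and edgeR and DESeq2 called 0 and 0. On simulated data of that comparison the test recovered 0% of genes changed by 1 on the log2 scale and 17% of those changed by 2, and the count of 0 therefore says nothing about stability. Without cKO library 3 it was 18 of 54, beside 34.9% of all genes, and in that fit kit and genotype cannot be told apart, since only first-kit cKO libraries are set against second-kit controls. With the replicate number as a block it was 34 of 54, beside 38.3% of all genes. Only cKO library 3 has replicate number 3, so that the block removes it from the cKO effect. In that fit, too, kit and genotype cannot be told apart. At P14, cKO library 3 was below both Cre controls for 36 of 54 members (33.3% of all genes) and above both for 5 (26.9%). With the first kit both cKO libraries were below both controls for 2 of 55 (14.5%) and above for 5 (15.1%).

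An interaction term, fitted to the first-kit libraries, compared the effect of cKO at both stages. For 2 of 58 members the effect was lower at P16 than at P14, Cfap161 (-1.05 ± 0.25, SE, limma adjusted p = 0.0354) and Cfap99 (-1.0 ± 0.24, SE, limma adjusted p = 0.0407), against 4.49% of all genes called lower, 2.9% higher and 7.39% in either direction. The median over the members was -0.31, with 49 of 58 below 0. This count depends on every library: without cKO library 1 of P14 it was 33, and without any other single library it was 0. For 56 of 58 members a difference between the stages was therefore not called, and the cKO effect at P16 in the members called there is not shown to differ from that at P14 beyond Cfap161 and Cfap99.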

How the data were processed

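Whole testis RNA was measured in 16 libraries, and the labels do not say that replicates came from separate animals, so that p-values measure only the spread between these samples. Per the submitters' processing notes, Trim Galore, STAR, HTSeq and DESeq2 were used with the builds GRCm39 and mm39. Versions, annotation release and strand setting are not given in the sources used here. The authors deposited a signal per gene, normalised read counts scaled by 1 factor per library in each of 4 tables, and cKO libraries 1 and 2 of a stage stand in both tables of that stage. Whole reads could be recovered for 100% of the non-zero values in each column (tolerance 0.01). STAR's summary entries, 53.4% to 63.0% of all reads, were left out. All columns matched a sample (0 unmatched).

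Gene IDs were named from GENCODE M21 (52133 of 55414). Genes with at least 10 in at least 2 libraries were tested. The 4 comparisons of cKO with a control type were fitted within a table by limma 3.58.1 (trend) on log2(value + 1), a scale that makes changes of low genes look smaller. The fit over both kits, the interaction and the stage comparisons were fitted by limma to TMM-scaled log2 CPM from these whole reads (prior count 1). P-values were adjusted by Benjamini-Hochberg over all genes, and called means adjusted p under 0.05. edgeR 4.0.16 (quasi-likelihood) and DESeq2 1.42.0 on the recovered reads were among the alternatives, with R 4.3.3. On simulated counts for the P16 comparison with control (17738 genes, 200 changed), 90.2% of genes changed by log2 1 were recovered.

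Levels between genes were compared per kb of GENCODE exon length. Promoters came from RefSeq (GRCm38.p6), and no other coordinates are given because the builds differ. All members of the Dnah, Dnaic, Dnaaf, Rsph and Drc families could be named. Cfap members were named for the largest called changes at P16, the highest levels per kb, the largest changes from P14 to P16, or a call over both kits or in the interaction. For partner lists, up to 3 genes per direction were named. The members, roles and lists were chosen with earlier results of these data known. Alternatives were pseudocounts of 0.1 and 10, no minimum and a minimum of 50, other scalings, eBayes without trend, the kit as a covariate, a replicate block and leaving out each library.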

Additional observations from a re-analysis of the deposited data

Results flagged for a closer look

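Single libraries were compared with the others of their group in the only group with 4 libraries, the Cre controls at P16, for the 58 members and for their summed share of reads. In 2 of these 59 checks 1 library stood apart by Dixon's criterion, which chance alone passes in about 1 of 20. Rsph14 stood at 5.83 normalised counts in Cre control library 4, against 25.3, 23.8 and 22.6 in the other 3. Dnaaf3 stood at 141.0 in Cre control library 4, against 226, 217 and 219. The same library was below the mean of the other Cre controls for 54 of 58 members and for the pachytene list (median -0.59), and the part of that list in these values was not tested.

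The effect of cKO was called different between P16 and P14 for 2 of 58 members (3.45%) by the limma interaction test. Of all genes 7.39% were called, so that the share of members lay below that of all genes. The difference was -1.05 on the log2 scale for Cfap161 (adjusted p = 0.0354) and -1.0 for Cfap99 (adjusted p = 0.0407). Cfap161 was called in 5 of 14 alternative fits of this test and Cfap99 in 4 of 14, with log2 differences from -1.30 to -0.82 and from -1.17 to -0.85.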

How the results depend on the processing

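No called member changed direction in any alternative, and 10 of the 30 members called against control at P16 were called in all 14 alternatives, among them Cfap161, Cfap44, Cfap52, Cfap53, Cfap70, Cfap99, Dnah17 and Drc1. Counts of members called moved as follows. With eBayes without trend they were 12 of 58 against control at P16 (0 higher), 0 against Cre control at P16, 1 over both kits, 0 in the interaction, 33 for the stage change in Cre controls and 0 for that in cKO. Against Cre control at P16 the count of 2 became 1 with a pseudocount of 0.1, with TMM scaling, without a minimum or with edgeR, 0 with the kit as a covariate, and 5 with DESeq2. In the interaction the count of 2 became 0 without a minimum and 4 with DESeq2. Leaving out 1 library at a time gave 18 to 31 members against control at P16, 0 to 8 against Cre control at P16, 0 to 18 against Cre control at P14, 1 to 24 over both kits, 0 to 33 in the interaction, 30 to 53 for the stage change in Cre controls and 0 to 52 for that in cKO. Where this left an arm with 1 library, that library was assumed to vary like the others. Except against Cre control at P14, the share of all genes called in the same fit is not given beside the counts from alternative fits. These counts therefore do not show whether calls moved more for members than for other genes.

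Replicate numbers were not treated as pairs: same-numbered controls and cKO libraries correlated at 0.08 (P16) and 0.19 (P14) in their deviations from the group means, and controls of both stages at -0.03, with only 2 pairs each. With the replicate number as a replicate block, 0 members were called against Cre control at P16, 34 against Cre control at P14 (32 higher, 2 lower, beside 38.3% of all genes) and 6 in the interaction, and the other counts stayed within 1.5 times. In the fit against Cre control at P14 only cKO library 3 has replicate number 3, so that the block removes it from the cKO effect. First-kit cKO libraries are then set against second-kit controls, and kit and genotype cannot be told apart. The cause of the other changes was not tested. Members with under 100 counts in the P16 controls (10 of 58, Rsph14 among them) are the ones that depth limits most.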
